A study of Mus musculus with 8 samples.

Results

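Macrophages of fat tissue come from 2 sources, and 10 genes that tell them apart or mark all of them were followed in white adipocyte RNA. Cd163, Lyve1, Folr2, Timd4 and Mrc1 mark resident macrophages, Ccr2, Ly6c2 and Cx3cr1 mark monocytes and the macrophages that derive from them, and Adgre1 and Csf1r are expressed by macrophages of either source. The 10 genes were chosen by symbol for these roles, and each was found as 1 row among the 30387 genes of the table. The white adipocytes came from epididymal fat pads. Their donors were wild-type littermates (WT) or Ad-Yap/Taz-KO mice, which carry Adipoq-Cre and are homozygous for floxed alleles of Yap (Yap fl/fl) and of Taz (Taz fl/fl), so that Cre under the adiponectin promoter deletes Yap1 and Wwtr1, the gene for TAZ, in fat cells. The mice received SD, a standard chow, or HFD, a high-fat diet, for 4 weeks from week 5 of age according to the data set's description (the methods give a later start), so that 4 groups of 2 libraries resulted: WT SD, Ad-Yap/Taz-KO SD, WT HFD and Ad-Yap/Taz-KO HFD. The sources do not give the alleles of the WT littermates of this line.

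Resident macrophages settle in tissues early and largely renew themselves in place. They line vessels, take up debris and clear hemoglobin or dying cells through scavenger receptors such as CD163 and the phosphatidylserine receptor TIM-4. Inflammatory monocytes carry CCR2 and high Ly6C, follow the chemokine CCL2 out of the blood, and lose both markers as they turn into macrophages. The 2 sources can therefore be told apart by these transcripts for a limited time. Obesity is known for a growing number of monocyte-derived macrophages in visceral fat. Both sources carry F4/80, which Adgre1 encodes, and need the receptor for CSF1, which Csf1r encodes.

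The libraries were made from adipocytes and not from sorted macrophages, and which cells gave each transcript was not determined. In bulk RNA, fewer cells of a type and less RNA per cell cannot be told apart. Normalized counts, the deposited gene counts after division by 1 size factor per library, summed to between 14890264 and 20994246 per library, and the spacing of low values puts the reads on genes at 14 to 22.3 M. Summed over 10 genes of the adipocyte list, the level lay between 99497 and 453162 normalized counts, against 2165 to 18181 for 12 core macrophage genes. Wwtr1 had 7121 and 6807 in WT HFD libraries and fell to 2060 and 2707 with the knockout (log2 fold change -1.56, SE 0.18, limma adjusted p = 3.1e-05). On SD it fell from 5594 and 4743 to 2441 and 1957 (log2 fold change -1.24, SE 0.18, limma adjusted p = 0.00097). Yap1 had 2468 and 2333 in WT HFD libraries against 1549 and 2068 after the knockout, which did not pass the test (log2 fold change -0.42, SE 0.16, limma adjusted p = 0.059). On SD it fell from 2776 and 2717 to 1669 and 1699 (log2 fold change -0.71, SE 0.16, limma adjusted p = 0.024). The 2 WT HFD libraries were more alike than any other pair: in genes with 1000 to 5000 reads their squared difference was 5.86 times the Poisson expectation, against 25.9 to 83.8 times in the other 3 groups. With these libraries averaged to 1 sample, 4 members were still called for the knockout on HFD (limma adjusted p = 9.8e-06 for Adgre1, 5.4e-05 for Csf1r, 0.00012 for Mrc1 and 0.043 for Folr2). The 2 Ad-Yap/Taz-KO HFD libraries differed in makeup, with adipocyte list sums of 201149 and 99497 and endothelial list sums of 21498 and 33119 normalized counts.

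The promoters of Mrc1 and Cd163 are shown because both genes mark resident macrophages and had unlike profiles over the libraries. The 250 bases before the start are from RefSeq (GRCm38.p6), which held an entry for 7 of the 10 genes. Mrc1 lies on the forward strand of chromosome 2 (chr2:14229164-14229413) and Cd163 on the forward strand of chromosome 6 (chr6:124304401-124304650). Capitals mark GAGGAA or its reverse complement TTCCTC, a core sequence bound by PU.1, the factor that macrophages need to form.
Mrc1: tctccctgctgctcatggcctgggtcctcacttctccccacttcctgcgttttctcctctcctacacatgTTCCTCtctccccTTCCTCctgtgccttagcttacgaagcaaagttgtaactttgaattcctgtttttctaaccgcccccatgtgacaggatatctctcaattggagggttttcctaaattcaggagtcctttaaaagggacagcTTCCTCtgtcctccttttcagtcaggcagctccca
Cd163: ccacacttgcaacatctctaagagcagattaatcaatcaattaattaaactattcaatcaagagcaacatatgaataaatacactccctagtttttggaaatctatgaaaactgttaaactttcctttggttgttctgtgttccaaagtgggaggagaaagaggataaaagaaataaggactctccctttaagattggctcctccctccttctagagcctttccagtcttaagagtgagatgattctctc
The Mrc1 window held 3 matches, 180, 167 and 35 bases before the start, all in reverse, and the Cd163 window held 0. The 2 Ly6c2 windows held 1 and 2 matches, and the windows of the other members searched held 0. Of 32851 promoter windows of this length, 23.25% held the core. The MAF site TGCTGA, found in 16.08% of windows and searched on both strands, occurred in the Folr2 and Timd4 windows, and CATTCC, the core bound by the TEAD partners of YAP and TAZ, was in 12.64% of windows and in none of the members' windows. These matches describe letters in a window.

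A minimum mean of 5 normalized counts left 18800 genes for testing, 9 of the 10 members among them; Ly6c2 had a mean of 1.62. The test was limma on log2(normalized count + 1), a scale that understates changes of low genes, and a difference counted as called where p, adjusted by Benjamini-Hochberg over all these genes, did not exceed 0.05 and the log2 fold change reached 0.59 up or down. With 2 libraries against 2, an exact permutation test of a single gene cannot go below p = 0.333, and all p-values below are those of limma.

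The general markers rose in Ad-Yap/Taz-KO adipocytes on both diets. Adgre1 encodes the adhesion receptor F4/80 (ENSMUSG00000004730, chromosome 17, 57358686 to 57483529, GRCm38). It had 150 and 152 normalized counts in WT SD, 1699 and 922 in Ad-Yap/Taz-KO SD, 73 and 90 in WT HFD, and 3314 and 3178 in Ad-Yap/Taz-KO HFD. Every knockout library lay above every WT library, and the knockout groups of the 2 diets did not overlap each other. The rise was 39.6-fold on HFD (log2 fold change 5.31, SE 0.25, limma adjusted p = 4.1e-08) and 8.24-fold on SD (log2 fold change 3.04, SE 0.25, limma adjusted p = 1.8e-05). Csf1r encodes the receptor for CSF1 and IL-34, on which macrophages depend to survive (ENSMUSG00000024621, chromosome 18, 61105572 to 61132149). It had 655 and 583 normalized counts in WT SD, 2869 and 1541 in Ad-Yap/Taz-KO SD, 287 and 284 in WT HFD, and 3461 and 3441 in Ad-Yap/Taz-KO HFD. The same separation of genotypes was seen, with a 12.1-fold rise on HFD (log2 fold change 3.59, SE 0.23, limma adjusted p = 3.8e-07) and a 3.40-fold rise on SD (log2 fold change 1.77, SE 0.23, limma adjusted p = 0.00063). Other cell types moved with the knockout on HFD as well. The adipocyte list summed to 453162 and 446205 in WT HFD and 201149 and 99497 in Ad-Yap/Taz-KO HFD, the fibroblast and progenitor list to 25305 and 25502 against 73527 and 79486. Their part in the rise of the general markers was not tested. Of the exon bases of Csf1r, 15.1% are shared with Hmgxb3 on the opposite strand, and whether the counting used the strand is not given in the sources used here.

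**Figure D1:**
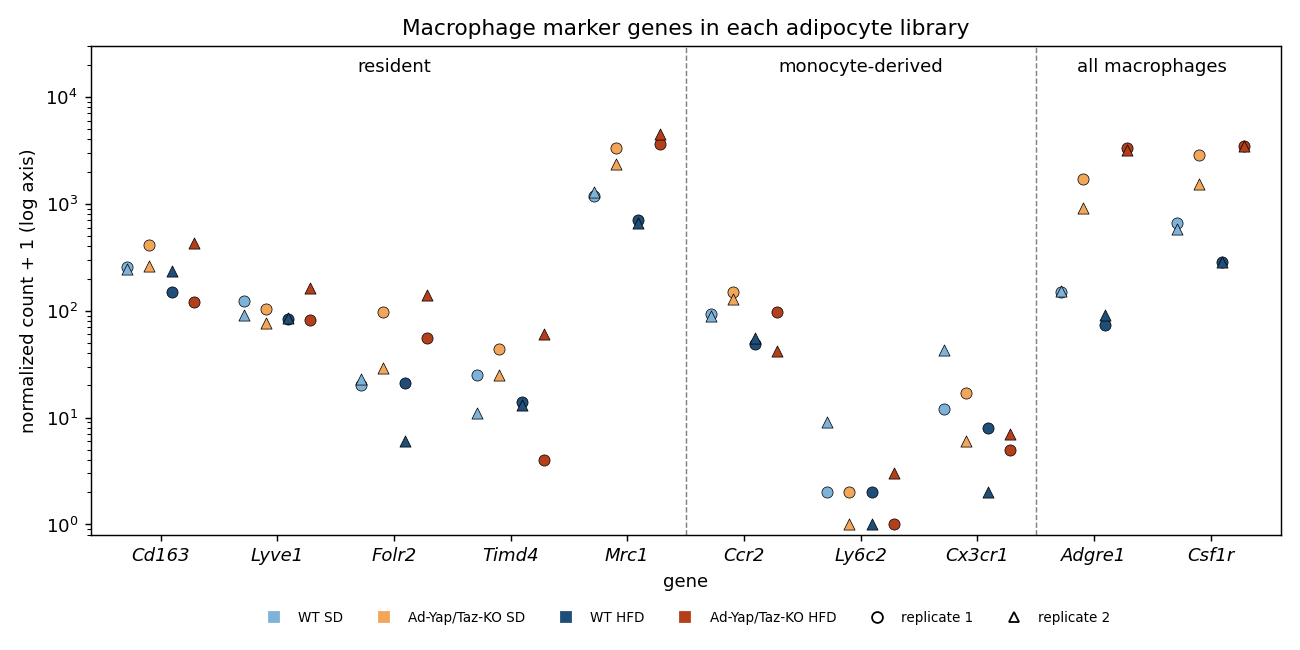
Normalized count plus 1 (log axis) of the 10 genes in each of the 8 libraries, coloured by group, with circles for replicate 1 and triangles for replicate 2. Adgre1, Csf1r and Mrc1 of both knockout groups lie above all WT libraries, whereas Cd163, Lyve1, Timd4, Ccr2 and Cx3cr1 of the 2 HFD groups overlap or lie close together.

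Mrc1 had the highest level of the resident markers. Mrc1 encodes the mannose receptor CD206, which resident macrophages carry and which other macrophages can also express when alternatively activated (ENSMUSG00000026712, chromosome 2, 14229392 to 14332057). It had 1186 and 1298 normalized counts in WT SD, 3336 and 2363 in Ad-Yap/Taz-KO SD, 700 and 658 in WT HFD, and 3591 and 4523 in Ad-Yap/Taz-KO HFD. No knockout library overlapped a WT library on either diet. Mrc1 rose 5.93-fold on HFD (log2 fold change 2.57, SE 0.19, limma adjusted p = 8.6e-07) and 2.26-fold on SD (log2 fold change 1.18, SE 0.19, limma adjusted p = 0.0021). It supplied 66.3 to 77.9% of the summed normalized counts of the 5 resident markers in WT libraries and 83.6 to 93.3% in knockout libraries, so that a sum over the 5 genes mostly reports Mrc1.

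Folr2 encodes a folate receptor of perivascular resident macrophages (ENSMUSG00000032725, chromosome 7, 101839988 to 101857194). It had 19 and 22 normalized counts in WT SD, 96 and 28 in Ad-Yap/Taz-KO SD, 20 and 5 in WT HFD, and 55 and 140 in Ad-Yap/Taz-KO HFD. The groups did not overlap on either diet, but the 2 libraries of 3 groups differed by 2.55 to 4 fold. The rise passed the test on HFD (log2 fold change 2.98, SE 0.76, limma adjusted p = 0.0091) and missed it on SD (log2 fold change 1.31, SE 0.76, limma adjusted p = 0.42). Without WT HFD replicate 2 the HFD value was 2.08 (limma adjusted p = 0.097), and without Ad-Yap/Taz-KO HFD replicate 2 it was 2.32 (limma adjusted p = 0.12), so the call rests on these libraries. The exons of Folr2 share 63.1% of their bases with the antisense gene Gm10602, and reads over several genes were left out of the counting, so if the strand was not used, Folr2 was counted only over the rest of its exons.

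Cd163 encodes the receptor for hemoglobin bound to haptoglobin (ENSMUSG00000008845, chromosome 6, 124304656 to 124330527). It had 257 and 247 normalized counts in WT SD, 413 and 260 in Ad-Yap/Taz-KO SD, 148 and 234 in WT HFD, and 120 and 432 in Ad-Yap/Taz-KO HFD. The HFD knockout libraries lay below and above both WT libraries, and the difference of the groups was 0.29 on the log2 scale with a 95% confidence interval from -0.72 to 1.30 (limma adjusted p = 0.66). The value rested on single libraries: leaving out WT HFD replicate 1 gave -0.038, leaving out Ad-Yap/Taz-KO HFD replicate 2 gave -0.63, and leaving out its replicate 1 gave 1.21, which was called (limma adjusted p = 0.019). On SD the difference was 0.38 (interval -0.63 to 1.38, limma adjusted p = 0.75). Both intervals leave room for a rise of more than 2-fold and exclude one of the size seen for Adgre1.

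Lyve1 encodes a hyaluronan receptor of vessel-associated resident macrophages that lymphatic endothelium also expresses (ENSMUSG00000030787, chromosome 7, 110850607 to 110863239). It had 121 and 90 normalized counts in WT SD, 102 and 75 in Ad-Yap/Taz-KO SD, 83 and 84 in WT HFD, and 81 and 163 in Ad-Yap/Taz-KO HFD. The groups overlapped on both diets, with a difference of 0.46 on HFD (interval -0.39 to 1.30, limma adjusted p = 0.39) and -0.25 on SD (interval -1.09 to 0.59, limma adjusted p = 0.81). The 6 lymphatic endothelial genes summed to 489 and 458 normalized counts in WT HFD and 974 and 1513 in Ad-Yap/Taz-KO HFD, where 3 of them rose, against 17.1% of all genes called as higher, and no library had a lymphatic gene at 0. Their part in the Lyve1 values was not tested.

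Timd4 encodes TIM-4, the phosphatidylserine receptor of long-lived resident macrophages (ENSMUSG00000055546, chromosome 11, 46810800 to 46844332). It had 24 and 10 normalized counts in WT SD, 43 and 24 in Ad-Yap/Taz-KO SD, 13 and 12 in WT HFD, and 3 and 59 in Ad-Yap/Taz-KO HFD. The 2 knockout libraries on HFD lay on either side of both WT libraries, 19.7-fold apart. The difference of 0.20 on HFD (interval -2.07 to 2.47, limma adjusted p = 0.90) and of 1.00 on SD (interval -1.27 to 3.27, limma adjusted p = 0.69) therefore set no useful limit on a change.

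Among the monocyte-derived markers Cx3cr1 and Ly6c2 were low, while the mean of Ccr2 (87.0) lay between those of the resident markers Lyve1 (99.9) and Folr2 (48.1). For the knockout, 0 of the 2 tested passed limma's threshold on either diet (0 of 2 also at an unadjusted p under 0.05). Of all genes, 32.2% were called on HFD and 4.71% on SD, so a count of 0 of 2 says little. Ccr2 encodes the receptor by which monocytes leave the marrow and enter tissue (ENSMUSG00000049103, chromosome 9, 124101950 to 124113557). It had 92 and 89 normalized counts in WT SD, 148 and 127 in Ad-Yap/Taz-KO SD, 48 and 54 in WT HFD, and 97 and 41 in Ad-Yap/Taz-KO HFD. On SD both knockout libraries were above both WT libraries (log2 fold change 0.59, interval -0.32 to 1.51, limma adjusted p = 0.53), and on HFD they lay above and below them (log2 fold change 0.31, interval -0.61 to 1.22, limma adjusted p = 0.61).

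Cx3cr1 encodes the fractalkine receptor of patrolling monocytes and of some tissue macrophages (ENSMUSG00000052336, chromosome 9, 119901616 to 120068283). It had 11 and 42 normalized counts in WT SD, 16 and 5 in Ad-Yap/Taz-KO SD, 7 and 1 in WT HFD, and 4 and 6 in Ad-Yap/Taz-KO HFD. The differences of 0.56 on HFD (interval -1.75 to 2.88, limma adjusted p = 0.72) and -1.17 on SD (interval -3.48 to 1.14, limma adjusted p = 0.64) rest on few reads. Ly6c2, the marker of inflammatory monocytes (ENSMUSG00000022584, chromosome 15, 75108158 to 75111970), was low, at 1 and 8 normalized counts in WT SD, 1 and 0 in Ad-Yap/Taz-KO SD, 1 and 0 in WT HFD, and 0 and 2 in Ad-Yap/Taz-KO HFD. A value of 0 allows up to 3 reads, or 2.80 to 3.18 normalized counts in these 3 libraries, for counting error only. A difference in Ly6c2 was not detectable at this depth. Its neighbour Ly6c1, an endothelial gene that shares 9.46% of the 75-base windows of Ly6c2, had 130 to 471 normalized counts, and reads that fit both were left out of the counting.

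**Figure D2:**
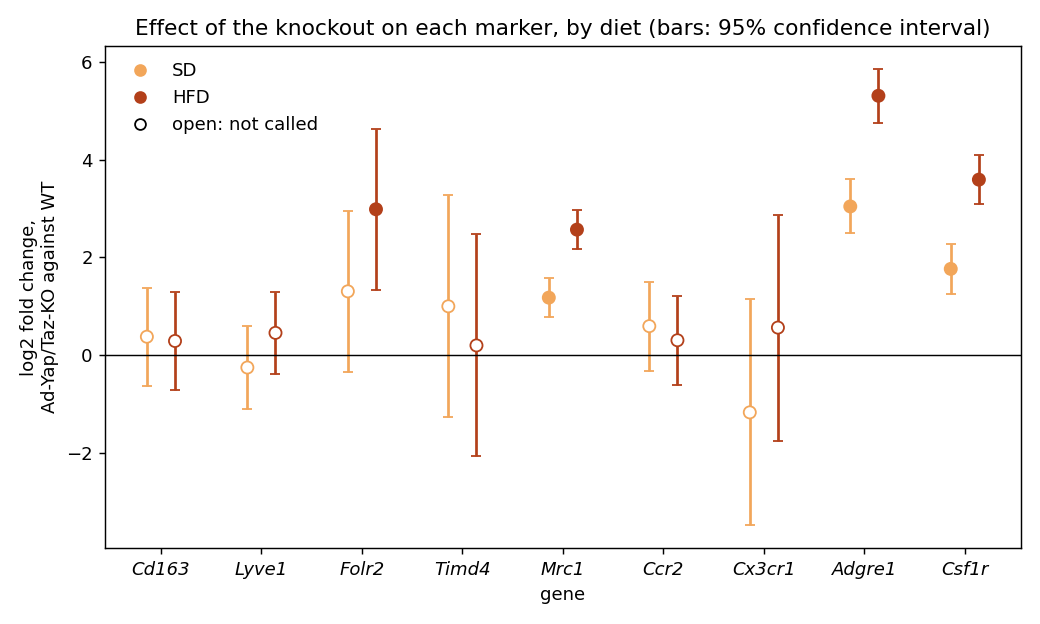
Log2 fold change of Ad-Yap/Taz-KO against WT for the 9 tested genes on SD and HFD, with 95% confidence intervals from limma and filled points for called differences. Adgre1, Csf1r and Mrc1 are called on both diets and Folr2 on HFD, while the intervals of Cd163, Lyve1, Timd4, Ccr2 and Cx3cr1 include 0 on both.

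By count, 4 of the 9 tested members rose on HFD, namely Adgre1, Csf1r, Mrc1 and Folr2, where 32.2% of all tested genes were called, 17.1% of them as higher. On SD 3 rose, namely Adgre1, Csf1r and Mrc1, where 4.71% of all genes were called and 3.21% as higher. No member fell with the knockout on either diet. The median log2 fold change on HFD was 4.45 for the 2 general markers, 0.46 for the 5 resident markers and 0.44 for the 2 tested monocyte-derived markers, against 0.09 for all genes tested.

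HFD lowered the general markers and Mrc1 in WT adipocytes, whereas in Ad-Yap/Taz-KO adipocytes it raised Adgre1. In WT, Mrc1 (log2 fold change -0.87, SE 0.19, limma adjusted p = 0.0083), Csf1r (-1.11, SE 0.23, limma adjusted p = 0.0077) and Adgre1 (-0.89, SE 0.25, limma adjusted p = 0.029) fell, where 18% of all genes were called and 9.22% as lower. After averaging of the 2 WT HFD libraries, none of the 3 passed (limma adjusted p = 0.090, 0.083 and 0.15). Other cell types moved in the same contrast: the adipocyte list summed to 233348 and 268401 normalized counts in WT SD and 453162 and 446205 in WT HFD, the endothelial list to 32134 and 26485 against 16263 and 16714, and 4 of 9 endothelial, 3 of 6 lymphatic endothelial and 3 of 8 fibroblast and progenitor genes were called as lower. Their part in the fall of the members was not tested. Ccr2 (-0.82, limma adjusted p = 0.19) and Cx3cr1 (-2.51, limma adjusted p = 0.11) had lower values in both WT HFD libraries than in both WT SD libraries and did not pass. In the knockout the change of Adgre1 was called (log2 fold change 1.37, SE 0.25, limma adjusted p = 0.027), 1 of 9 members where 1.07% of all genes were called and 0.383% as higher. This call was lost in several other fits, including that of the 2 knockout groups alone. The other members did not pass there, with Csf1r at 0.71 (limma adjusted p = 0.16), Mrc1 at 0.52 (limma adjusted p = 0.20) and Ccr2 at -1.11 (limma adjusted p = 0.23).

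The effect of the knockout was larger on HFD than on SD for the same 3 genes, by the interaction of genotype and diet. The difference of the 2 effects was 2.26 for Adgre1 (SE 0.36, limma adjusted p = 0.0038), 1.83 for Csf1r (SE 0.33, limma adjusted p = 0.0060) and 1.39 for Mrc1 (SE 0.26, limma adjusted p = 0.0071), while 17.4% of all genes were called in this contrast and 8.69% in this direction. For Csf1r and Mrc1 the change between diets was called in WT (-1.11 and -0.87) and not in the knockout (0.71 and 0.52). With HFD, 9 of 12 core macrophage genes were called lower in WT, where 9.22% of all genes were. In the knockout 0 of 12 were called, where 1.07% of all genes were. With the WT HFD libraries averaged, Mrc1 was just short of the threshold (limma adjusted p = 0.051). For Cd163 the difference of effects was -0.09 (interval -1.51 to 1.34), for Lyve1 0.71 (interval -0.48 to 1.90) and for Ccr2 -0.29 (interval -1.58 to 1.00).

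Relative to the general markers in the same library, most subset markers made up less in the knockout. Cd163 stood at 82.0 and 83.0% of the geometric mean of Adgre1 and Csf1r in WT SD, 18.7 and 21.8% in Ad-Yap/Taz-KO SD, 102 and 146% in WT HFD, and 3.54 and 13.1% in Ad-Yap/Taz-KO HFD. Ccr2 stood at 29.4 and 29.9% in WT SD, 6.70 and 10.7% in Ad-Yap/Taz-KO SD, 33.2 and 33.8% in WT HFD, and 2.86 and 1.24% in Ad-Yap/Taz-KO HFD. Thus a resident and a monocyte-derived marker both had lower ratios in every knockout library than in any WT library. Mrc1 stood at 378 and 436% in WT SD, 151 and 198% in Ad-Yap/Taz-KO SD, 484 and 412% in WT HFD, and 106 and 137% in Ad-Yap/Taz-KO HFD, so its ratio was lower as well although its level rose. For Folr2 the ratios overlapped on HFD, with 13.8 and 3.13% in WT and 1.62 and 4.23% in the knockout. On SD the Folr2 ratios were lower in the knockout, at 4.35 and 2.35% against 6.06 and 7.39% in WT. The ratios of Cx3cr1 and Ly6c2, which rest on few reads, overlapped between genotypes over the 8 libraries, although within each diet those of Cx3cr1 were lower in the knockout. Because each ratio has Adgre1 and Csf1r below the line, a gene with an equal level in all libraries would show the same pattern. Adgre1 itself rose more than Csf1r, from 22.9 to 31.7% of Csf1r in WT libraries to 59.2 and 59.8% in Ad-Yap/Taz-KO SD and 95.8 and 92.4% in Ad-Yap/Taz-KO HFD.

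**Figure D3:**
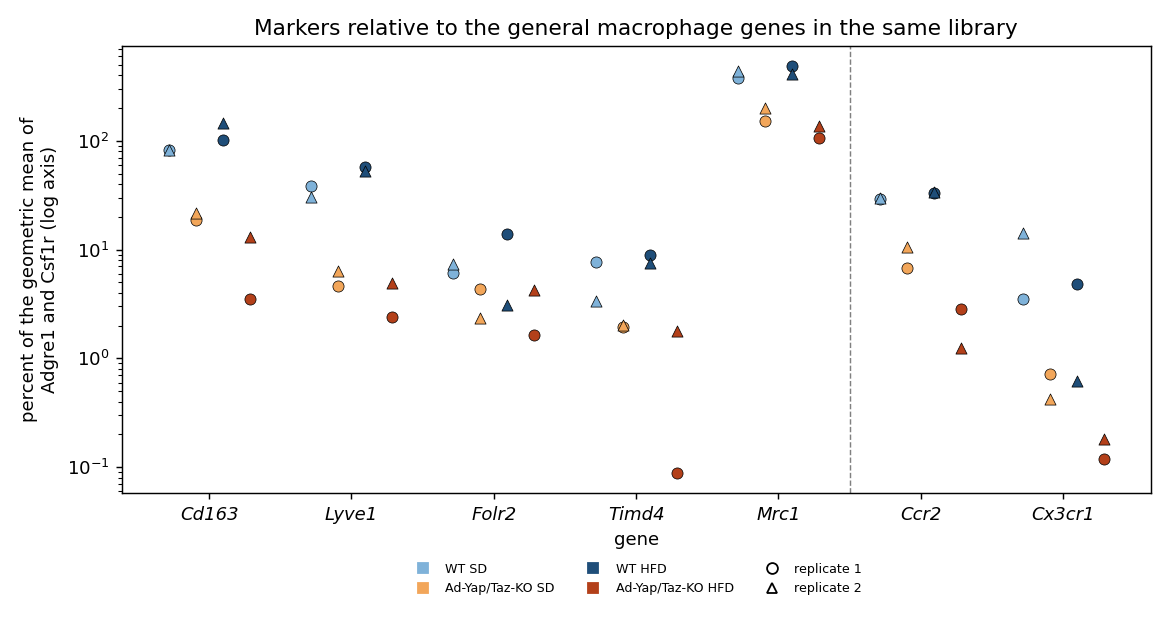
Each of 7 subset markers as a percent (log axis) of the geometric mean of Adgre1 and Csf1r in the same library, coloured by group with a symbol per replicate. Cd163, Lyve1, Timd4, Mrc1 and Ccr2 have lower ratios in all 4 knockout libraries than in all 4 WT libraries. Folr2 and Cx3cr1 overlap between genotypes over all libraries, but within a diet only Folr2 on HFD does. Ly6c2, with values of 0, is not drawn.

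The same question was fitted with each library centred on its mean over 12 core macrophage genes, none of them a member. On that scale 7 of 9 members were called on HFD and 6 on SD, but so were 90.2% and 83.5% of all genes, with medians over all genes of -3.97 and -2.09, and the counts say nothing particular about the members. On HFD the relative difference was -3.77 for Cd163 (interval -4.52 to -3.02), -3.61 for Lyve1 (interval -4.53 to -2.68), -3.86 for Timd4 (interval -5.46 to -2.26) and -3.76 for Ccr2 (interval -4.73 to -2.79), all near the median of all genes. Mrc1 lay between these and the core genes at -1.49 (interval -2.14 to -0.85). Folr2 at -1.08 (interval -2.37 to 0.22) and Csf1r at -0.47 (interval -1.12 to 0.17) did not pass, and Adgre1 exceeded the core genes by 1.24 (interval 0.56 to 1.93). Cx3cr1 was at -3.50 on HFD and -3.24 on SD. On SD the called values were -1.70 for Cd163, -2.33 for Lyve1, -1.48 for Ccr2, -0.90 for Mrc1 and 0.97 for Adgre1, beside that of Cx3cr1. Timd4 at -1.08, Folr2 at -0.77 and Csf1r at -0.31 did not pass on SD. The intervals of this relative fit may be too narrow. On HFD the SE of Timd4 was 0.82 here against 1.05 on the deposited scale, although its knockout libraries had 3 and 59 normalized counts. Leaving out 1 library at a time gave relative HFD values of Timd4 between -5.89 and -1.84.

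Levels per kilobase of exon put the members in order within a library. In Ad-Yap/Taz-KO HFD, Adgre1 had 1023 and 982 normalized counts per kb, Mrc1 564 and 710, and Csf1r 599 and 596, so Mrc1 and Csf1r could not be ordered. Cd163, Folr2 and Lyve1 followed between 22.0 and 90.6 per kb and overlapped one another. Ccr2 at 14.4 and 6.07, Cx3cr1 at 0.888 and 1.33, and Ly6c2 at 0 and 0.730 were the lowest apart from 1 library of Timd4 at 1.38. In WT SD the order was another: Mrc1 came first with 186 and 204, Csf1r followed with 113 and 101, and Adgre1 at 46.3 and 46.9 was close to Cd163 at 47.1 and 45.2.

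Several subset markers differed between the 2 knockout libraries of HFD, where the general markers were close to equal. Adgre1 and Csf1r differed 1.04-fold and 1.01-fold between these libraries. Cd163 was 3.60-fold, Lyve1 2.01-fold, Folr2 2.55-fold and Timd4 19.7-fold higher in replicate 2, while Ccr2 was 2.37-fold higher in replicate 1. Mrc1 differed 1.26-fold and Cx3cr1, on few reads, 1.5-fold. Over all 6980 genes with a mean of 50 to 500, the fold between these 2 libraries had a median of 1.26 and a 95th percentile of 2.11, which Cd163 and Ccr2 exceeded and Lyve1 did not. Over the 2480 genes with a mean of 20 to 50 the median was 1.46 and the 95th percentile 3.50, which Timd4 exceeded and Folr2 did not. In the same pair the adipocyte list was higher in replicate 1 (201149 against 99497), the endothelial list in replicate 2 (33119 against 21498) and the core macrophage list close to equal (18181 and 16017). The part of this makeup in the marker values was not tested. In Ad-Yap/Taz-KO SD all 9 tested members were higher in replicate 1, by 1.17 to 3.43 fold. In that pair the core macrophage list (12262 against 8278), the endothelial list (25206 against 13718) and the fibroblast and progenitor list (53271 against 34885) were also higher in replicate 1 and the adipocyte list lower (186944 against 276378), and the part of this makeup was not tested either.

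**Figure D4:**
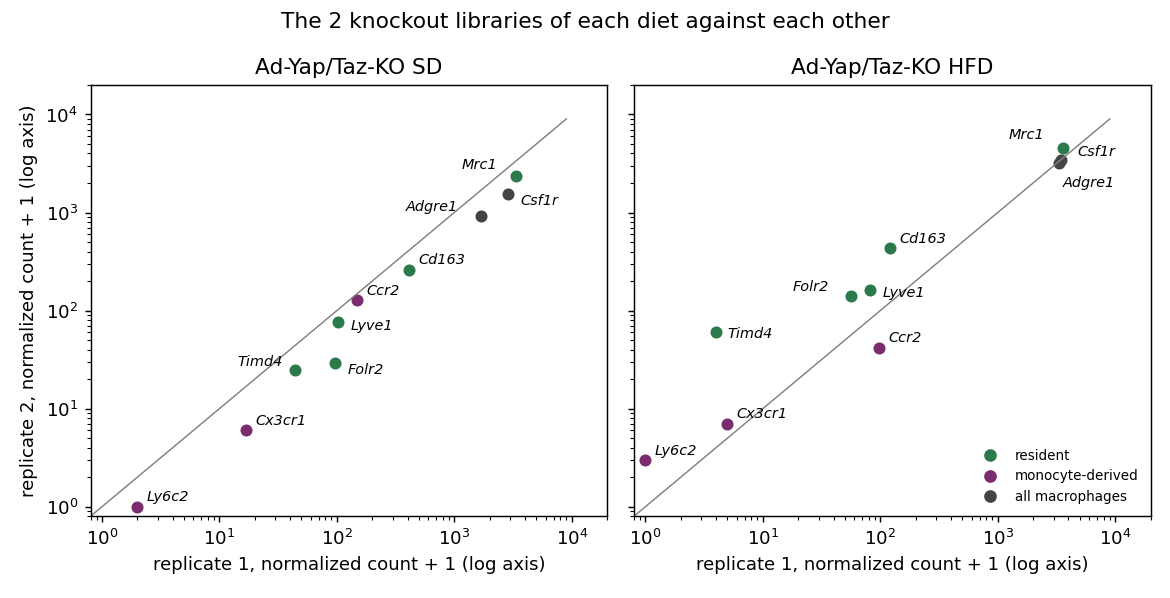
Normalized count plus 1 of the 10 genes in replicate 2 against replicate 1 (log axes) of the 2 knockout groups, coloured by role, with the line of equal values. In Ad-Yap/Taz-KO HFD the resident markers Cd163, Lyve1, Folr2 and Timd4 lie above the line and Ccr2 below it, whereas Adgre1 and Csf1r lie on it; in Ad-Yap/Taz-KO SD all genes lie on or below the line.

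Companion genes of each role were followed in the same way. Of the 12 core macrophage genes, 11 rose on HFD (median log2 fold change 4.39) and 10 on SD (median 2.40), where 17.1% and 3.21% of all genes were called as higher and 15.1% and 1.5% as lower, the background for the list counts that follow. Cd68, a lysosomal glycoprotein, rose from 143 and 201 to 3183 and 3020 normalized counts on HFD (log2 fold change 4.18, SE 0.23, limma adjusted p = 9.9e-08), C1qb, a chain of complement C1q, rose by 4.48 and Laptm5 by 4.83. Mertk, a receptor for dying cells, was the exception, with 1238 and 1291 in WT HFD and 986 and 1195 in Ad-Yap/Taz-KO HFD (limma adjusted p = 0.38).

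Of 19 tested further resident macrophage genes, 7 rose on HFD and 12 did not pass (median 0.68), and on SD 5 rose and 1 fell. The 4 with the highest mean levels were Sepp1 (log2 fold change on HFD 0.74), Klf4 (0.68), Stab1 (2.01) and Gas6 (-0.08, limma adjusted p = 0.80), of which the first 3 were called; the call of Klf4 was kept in 8 of 10 alternatives and lost with the WT HFD libraries averaged (limma adjusted p = 0.11). Of 17 tested further monocyte-derived genes, 11 rose on HFD and 6 did not pass (median 1.44), and on SD 4 rose and 1 fell. There the 4 with the highest levels were Fn1 (1.47), the adhesion receptor gene Cd44 (3.30) and Ace (2.01), which were called, and Nr4a1 (0.01, limma adjusted p = 0.98), which encodes a factor that patrolling monocytes need. Several of these genes, among them Fn1, Klf4, Sepp1 and Ace, are also expressed by stromal or endothelial cells, and 5 of 8 fibroblast and progenitor genes and 3 of 9 endothelial genes rose on HFD as well. Their part in these counts was not tested.

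The genes for ligands of the members' receptors did not move together. Csf1, a ligand of CSF1R, had 2238 and 2219 normalized counts in WT HFD and 3575 and 4404 in Ad-Yap/Taz-KO HFD (log2 fold change 0.83, SE 0.24, limma adjusted p = 0.017). Il34, the other ligand of CSF1R, fell from 128 and 151 to 43 and 83 on HFD (log2 fold change -1.20, limma adjusted p = 0.033) and from 144 and 162 to 26 and 33 on SD (log2 fold change -2.34, limma adjusted p = 0.0035). The CSF1R ligands thus changed in opposite directions on HFD. Leaving out 1 library at a time kept these directions, with 0.68 to 0.98 for Csf1 and -1.67 to -0.74 for Il34, but both calls were lost in some of these fits. For CCR2, Ccl2 had 2420 and 2463 in WT HFD and 2198 and 2986 in Ad-Yap/Taz-KO HFD (log2 fold change 0.07, interval -0.34 to 0.48, limma adjusted p = 0.81). Ccl7 (-0.04), Ccl8 (0.89) and Ccl12 (-0.40) did not pass either. Cx3cl1, the fractalkine gene, rose from 30 and 37 to 73 and 101 (log2 fold change 1.34, limma adjusted p = 0.033). Its value was 1.11 to 1.57 when 1 library at a time was left out, and its call was lost in some of these fits. Hp, which encodes haptoglobin, part of the complex that CD163 takes up, fell from 29490 and 30057 to 8697 and 5527 (log2 fold change -2.10, limma adjusted p = 0.00015), and 9 of 10 adipocyte genes fell on HFD too, where 15.1% of all genes were called as lower. Of 10 alternatives to the fit, the HFD calls of Csf1, Il34 and Cx3cl1 were kept in 8, 6 and 7, and all 3 were lost with the WT HFD libraries averaged (limma adjusted p = 0.10, 0.13 and 0.12), where Hp still passed (limma adjusted p = 0.0051).

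Of 12 genes for monocyte growth and adhesion, 8 rose on HFD (median 1.38) and 2 on SD. Icam1, an endothelial ligand for leukocyte integrins, rose from 2048 and 2152 to 7973 and 9025 normalized counts on HFD (log2 fold change 2.01, limma adjusted p = 0.00017), and Itgb2, the integrin chain that leukocytes share, rose from 144 and 147 to 3476 and 2863 (log2 fold change 4.43, limma adjusted p = 2.3e-08). Selp rose by 1.33, and Itgb1 was at -0.32 (limma adjusted p = 0.12). Dendritic cell genes rose in 2 of 9, T and NK cell genes in 1 of 4, and B cell genes in 1 of 4 tested on HFD, counts to be read against the 17.1% of all genes called as higher. For neutrophils limma called 0 of 2 tested genes on HFD (0 at an unadjusted p under 0.05), and the 6 genes summed to 5 to 30 normalized counts per library. Of 5 mesothelial genes 1 rose and 1 fell.

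**Figure D5:**
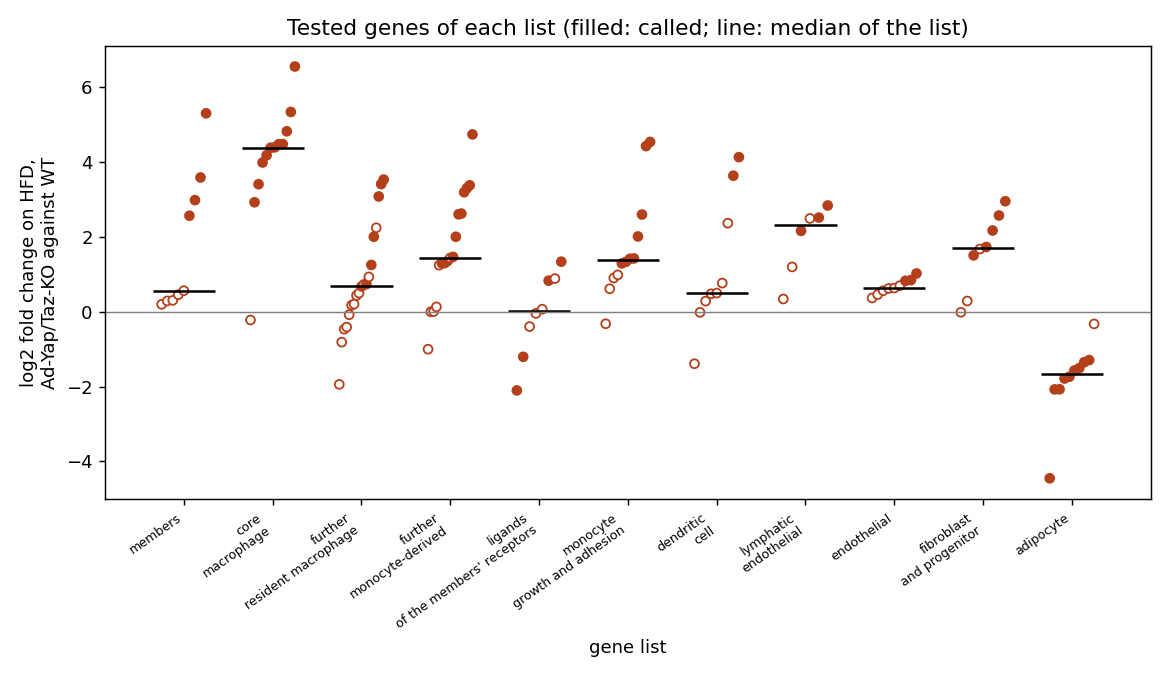
Log2 fold change on HFD of Ad-Yap/Taz-KO against WT for each tested gene of the members and of 10 companion lists, with filled points for called genes and a line at the median. The core macrophage genes have a median of 4.39, the members spread from near 0 to 5.31, and the adipocyte genes lie below 0.

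The genes with the most similar profile were listed for each member with a mean of at least 50, as a description without a test, since they were picked by their distance in these same 8 libraries. The measure was the root mean square distance of centred log2(normalized count + 1) values over the 8 libraries, searched among the 12093 genes whose mean reached 50. Adgre1 was nearest to Nckap1l (0.24), Nceh1 (0.24) and Clec12a (0.25), and Csf1r to Gas7 (0.12), Lat2 (0.16) and Tnfrsf1b (0.19). Mrc1 was nearest to Gdpd1 (0.13), Ifit1 (0.14) and Ubash3b (0.15). The nearest genes of Lyve1 were Trim30d (0.12), Zeb1 (0.13) and Filip1l (0.13), those of Cd163 were Alkbh2 (0.28), Gm43597 (0.30) and Trim34a (0.31), and those of Ccr2 were Ifi27l2a (0.21), Mrpl12 (0.24) and Fam195a (0.25). None of these 18 nearest genes was shared between members. Distances are smaller for genes that vary little, so they are not compared between members.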

How the data were processed

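Per the file headers and the values, the deposited table holds 1 score per gene and library: the authors' gene counts divided by a size factor and rounded to whole numbers, called normalized counts here. Per the study's methods, 20 ng of total RNA per library was depleted of ribosomal RNA and sequenced as single-end reads, which were trimmed, aligned to GRCm38 with STAR 2.5.2b and counted over exons with featureCounts 1.5.1, leaving out reads over several genes or places; the study tested with DESeq2 1.14.1. Whole reads were not recovered, because values worth under 1 read merge in rounding, so no count test was run.

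limma 3.58.1 (lmFit, contrasts.fit, eBayes with trend) in R 4.3.3 was fitted to log2(value + 1) of 18800 genes whose mean reached 5, with 4 group means. It had 4 residual degrees of freedom and 8.59 prior ones. All adjusted p-values outside the relative and alternative fits come from it, adjusted over all genes tested. The fit relative to the core macrophage genes was a second limma fit that pooled the spread over genes more strongly, so its intervals may be too narrow. On simulated data with 200 changed genes, 126 were called with 4 unchanged ones, and 0 when none was changed. Whether the simulated spread resembled that of the real libraries was not tested. The real spread was unequal between the genotypes on HFD. For genes with 1000 to 5000 normalized counts, squared differences over the Poisson expectation were 83.8 for the knockout pair and 5.86 for the WT pair. The simulation therefore sets no error rate for the calls in the real data. The value of 1 read was tested on 5 simulated libraries (largest error 0.011, for a library whose read is worth close to 1). Intervals are 95% confidence intervals. Exon lengths and overlaps came from GENCODE vM21, which held 30259 of the 30387 identifiers. Python 3.11.15 with pandas 2.3.3, numpy 2.4.6 and matplotlib 3.10.9 made the tables and figures. Groups and replicate numbers came from the labels. The study gives 2 mice per group. In genes with 1000 to 5000 normalized counts the 2 WT HFD libraries were more alike than the pairs of the other groups, but not in those with 5 to 20. The labels call these WT HFD libraries only repeats, so their independence is in doubt, and fits were also run with both averaged to 1 sample. Same-numbered libraries did not deviate together (correlations of -0.107 to 0.04), so the numbers do not pair.

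The members, companion lists and tests were chosen with earlier results of these data known. Named genes are the 10 members, Yap1, Wwtr1, Ly6c1, all ligands, at most 4 genes of highest mean from each companion list, and the 3 nearest profiles of members with a mean of at least 50. Alternatives were other pseudocounts, filters and scalings, a fit of only the groups compared, the replicate number as a block, the WT HFD libraries averaged, another reference for the relative fit, and leaving out each library.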

Additional observations from a re-analysis of the deposited data

Results flagged for a closer look

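By the interaction in limma, knockout effects on the 2 diets differed for 3 of the 9 tested members, where 17.4% of all genes were called. They also differed for 14 of the 24 companion genes named for their level or as ligands, and for the other 10 the difference, between -0.35 and 1.53, was not called. On the log2 scale the effect on HFD exceeded that on SD by 2.26 for Adgre1 (limma adjusted p = 0.0038), 1.83 for Csf1r (limma adjusted p = 0.0060) and 1.39 for Mrc1 (limma adjusted p = 0.0071). The core macrophage genes had differences of 2.14 for C1qb, 2.14 for Cd68 and 2.18 for Laptm5. Among the further resident and monocyte-derived genes the differences were 1.98 for Gas6, 1.39 for Stab1, 1.07 for Klf4, 0.91 for Nr4a1, 2.08 for Ace and 0.90 for Cd44. For Gas6 and Nr4a1 this difference came with a fall on SD, of -2.06 and -0.91, and values near 0 on HFD. Of the ligands, Csf1 had a difference of 1.55 and Hp one of -1.51. Of the genes for monocyte growth and adhesion, the differences were 1.67 for Icam1, 1.72 for Selp and 1.22 for Itgb2. All 17 contrasts use the same WT HFD and WT SD libraries, so they are not independent of one another. Groups of 2 libraries are too small for a search for single libraries that stand apart.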

How the results depend on the processing

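The counts of members called for the knockout stayed at 3 to 4 on HFD and at 3 on SD under all 10 alternatives run, and the interaction count at 2 to 3 under its 9. Leaving out each library in turn gave 3 to 5 on HFD, 3 to 3 on SD and 3 to 3 for the interaction, 0 to 3 for HFD against SD in WT and 0 to 3 in the knockout, and 6 to 8 on HFD and 4 to 6 on SD for the relative fit. The diet counts were less stable: in the knockout it was 0 with no filter on low values, 0 with only the groups compared and 0 with the WT HFD libraries averaged, and in WT it was 0 with these averaged. In the knockout the count of 1 was lost without either WT SD library, either WT HFD library, Ad-Yap/Taz-KO SD replicate 2 or Ad-Yap/Taz-KO HFD replicate 2, and was 3 without Ad-Yap/Taz-KO SD replicate 1. In WT it was 0 without WT SD replicate 1 or either WT HFD library and 1 without WT SD replicate 2. The cause was not tested.

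With the replicate block, 4 members were called on HFD, 3 on SD, 3 and 1 for the diet in WT and knockout, 3 for the interaction, and 7 and 6 in the relative fit on HFD and SD, so the block changed no count of members. The numbers share no source in the labels. DESeq2 and edgeR on recovered reads were not run, because whole reads were not recovered.

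Over all genes, the calls on SD (886) were 438 with no filter and 461 with only the groups compared. The diet calls in the knockout (202) were 112 at a pseudocount of 0.1, 330 at 8, 3 with no filter, 304 by quantile normalization, 0 with only the groups compared, 112 with the replicate block and 28 with WT HFD averaged. Those in WT (3377) were 1701 with no filter, 2186 by quantile normalization and 539 with WT HFD averaged. Averaging also took the calls on HFD (6053) to 3445 and the interaction (3274) to 517, which was 721 with no filter. Scaling to the same total gave 4617 higher and 1367 lower genes on HFD, against 3213 and 2840, and moved the median of all genes to 0.47, and that of HFD against SD in WT to -0.48 (470 higher and 3567 lower, against 1643 and 1734). The interaction then had 2610 higher and 619 lower genes, against 1633 and 1641.

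The values whose sign turned had not been called as reported. Under the same total these were Ccl7 (0.34), Mertk (0.17), Itgb1 (0.066) and Gas6 (0.31) on HFD, and Cd163 (0.34) and Ccr2 (0.13) in the interaction. Under upper-quartile scaling they were Ccl7 (0.043), Gas6 (0.0083) and Cd163 in the interaction (0.042). Under quantile normalization they were Timd4 (-0.67), Ccr2 (-0.19), Cx3cr1 (-1.07), Ccl7 (0.10), Itgb1 (0.19) and Gas6 (0.073) on HFD, Timd4 in WT between diets (0.29) and Cx3cr1 in the interaction (-0.018).

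Leaving out libraries turned the sign on HFD of Cd163 (-0.63 to 1.21), Lyve1 (-0.043 to 0.96), Timd4 (-1.75 to 2.15), Ccr2 (-0.31 to 0.92), Cx3cr1 (-0.44 to 1.56), Ccl2 (-0.15 to 0.29), Ccl7 (-0.26 to 0.17), Ccl12 (-0.97 to 0.18), Gas6 (-0.32 to 0.17) and Nr4a1 (-0.19 to 0.20). Between diets it turned Timd4 in WT (-0.89 to 0.29), and in the knockout Cd163 (-1.44 to 0.40), Lyve1 (-0.11 to 0.89), Folr2 (-0.13 to 1.62) and Timd4 (-3.05 to 0.86). In the interaction it turned Cd163 (-1.01 to 0.83), Timd4 (-2.75 to 1.15) and Ccr2 (-0.90 to 0.32). Of these, Cd163 on HFD was called in 1 fit, without Ad-Yap/Taz-KO HFD replicate 1. Few reads limit Ly6c2, Cx3cr1 and Timd4.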
